A study of Sus scrofa with 92 samples.

Results

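The immediate early response genes are the genes a cell transcribes first after a stimulus, and their liver expression was followed here through injury, hemorrhage and resuscitation. Members were chosen by gene symbol: FOS, JUN, JUNB, EGR1, ATF3, IER3, KLF6, MYC and DUSP1. Of these 9 symbols, 8 had a row among the 25322 pig Ensembl identifiers of the count tables, and all 8 passed the filter on low counts that left 13667 genes for testing. JUN was not analysed here. The identifiers were ENSSSCG00000002383 (FOS), ENSSSCG00000013735 (JUNB), ENSSSCG00000015595 (ATF3), ENSSSCG00000014336 (EGR1), ENSSSCG00000028828 (KLF6), ENSSSCG00000005965 (MYC), ENSSSCG00000027607 (IER3) and ENSSSCG00000016991 (DUSP1).

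The RNA came from liver biopsies of 23 male Yorkshire-Landrace pigs, all of which were fasted overnight, anesthetized, instrumented, splenectomized, given a blunt chest and a crush liver injury, bled into shock and resuscitated. No animal was left uninjured as a control. The 18 fasted animals (FS) received no sugar, and the 5 carbohydrate prefed animals (CPF, animals 3, 7, 8, 13 and 18) received diluted Karo syrup, a mixture of sugars, before anesthesia. Each animal was biopsied at Baseline (B), after instrumentation but before injury, and at 2 (FR2), 8 (FR8) and 20 hours (FR20) into full resuscitation, and 3 FS and 2 CPF animals were labelled as having died.

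Immediate early genes need no new protein synthesis to be switched on. Kinase cascades and stress signals act on transcription factors already bound at their promoters, and their messages and proteins decay quickly, so the response is usually a short pulse. Many of the products are themselves transcription factors. FOS and JUNB are partners in the AP-1 dimer, ATF3 is a stress-induced factor of the same bZIP class, EGR1 and KLF6 are zinc finger factors, and MYC drives growth and ribosome production. IER3 is a stress-induced regulator of survival, and DUSP1 is a phosphatase that switches off the MAP kinases. In liver these genes are known for their response to partial removal, reperfusion and surgical handling.

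Of 92 libraries, 88 were used. The 3 FS Baselines left out (animals 17, 19 and 21) held albumin (ALB) at 0.197 to 52.7 CPM (counts scaled to a common library total) and skeletal actin (ACTA1) at 385464 to 465108 counts, and the CPF FR8 library of animal 3 held too few counts to use. The 15 FS Baselines kept held ALB at 59451 CPM or more and ACTA1 at 24.0 CPM or less, so the 3 looked like muscle rather than liver. Fits that keep these 3 mix muscle-like libraries into the FS Baseline. The groups were then 15 FS and 5 CPF animals at Baseline, 18 and 5 at FR2, 18 and 4 at FR8, and 18 and 5 at FR20, with 6877117 to 16613261 counts per library. The FR2 and FR8 libraries of FS animal 11 lacked counts for whole chromosomes: 836 and 832 of 8260 well-covered genes were at 0, against at most 5 in each of the other 86 libraries, in which the 14 hepatocyte markers summed to 69360.5 CPM or more. The missing genes took in all 285 named genes that share ATF3's chromosome in the RefSeq annotation of Sscrofa11.1, so ATF3 was given no value in these 2 libraries and its tests are given with and without them. In liver pieces, fewer cells of a type and less RNA per cell cannot be told apart.

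The change most members shared was a drop from FR2 to FR8. Median expression was highest at FR2 for all 8 genes in FS animals and for 7 of 8 in CPF animals, with IER3 in CPF the exception. From FR2 to FR8, 5 of 8 genes fell in FS animals (FOS, ATF3, IER3, KLF6 and DUSP1) and 3 of 8 fell in CPF animals (IER3, KLF6 and DUSP1). Against Baseline, EGR1 rose in FS animals at FR2 and FR20, DUSP1 fell in FS animals at FR8 and FR20, FOS fell in FS animals at FR8, and IER3 and MYC rose in CPF animals at FR2. A gene is called changed, risen or fallen where edgeR's quasi-likelihood test gave an adjusted p under 0.05 together with a log2 fold change of 1 or more in size.

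Read against all genes, the drop from FR2 to FR8 stood apart most in FS animals. In CPF animals both that drop and the rise at FR2 stood apart. In FS animals 5 of 8 members fell, as did 3.43% of all tested genes, where 5.96% changed in either direction. In CPF animals 3 of 8 fell, as did 2.36% of all genes, where 4.92% changed in either direction. The median log2 change over the 8 members was -1.18 in FS and -2.22 in CPF, while the median over all genes was close to 0, and none of the 8 lay above 0 in either group. At FR2 against Baseline, 1 of 8 members changed in FS animals, where 11% of all genes did, and 2 of 8 rose in CPF animals, where 1.47% rose and 2.41% changed in either direction. By adjusted p alone 3 of 8 members passed in FS animals at FR2, against 41.4% of all genes, and 4 of 8 at FR8, against 39.3%. At FR2 IER3 and KLF6 no longer passed without the 2 libraries of FS animal 11 (adjusted p = 0.0699 and 0.0665 in edgeR). The median member change at FR2 was 0.63 in FS, with 7 of 8 above 0, and 1.69 in CPF, with 8 of 8 above 0. In CPF animals 7 of 8 members were higher at FR2 at an unadjusted p under 0.05 in edgeR, as were 1386 genes. For the CPF drop from FR2 to FR8, 7 of 8 members and 1746 genes were lower at that level.

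Later changes from Baseline went both ways in FS animals. In FS animals 2 of 8 members changed at FR8, where 11.8% of all genes did, and 2 of 8 changed at FR20, where 9.94% did, so these shares rest on 2 genes each. In CPF animals no member changed at FR8, where 8.83% of all genes did, and 1 had an unadjusted p under 0.05, as did 3878 of the 13667 genes. None changed at FR20, where 0.702% of all genes did, and 1 again had an unadjusted p under 0.05, as did 2249 genes. From FR8 to FR20 no member changed in FS animals (1.46% of all genes) or in CPF animals (0.022% of all genes). At an unadjusted p under 0.05 there were 3 members and 2962 genes in FS and 1 member and 1484 genes in CPF. DESeq2, edgeR's likelihood ratio test and limma each called 1 member in CPF animals at FR20 against Baseline, and DESeq2 called 1 from FR8 to FR20. These tools called none in CPF animals at FR8 or in FS animals from FR8 to FR20, where 1 member passed in a fit without animal terms. The shares of all genes called in these alternative fits are not given here.

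**Figure D1:**
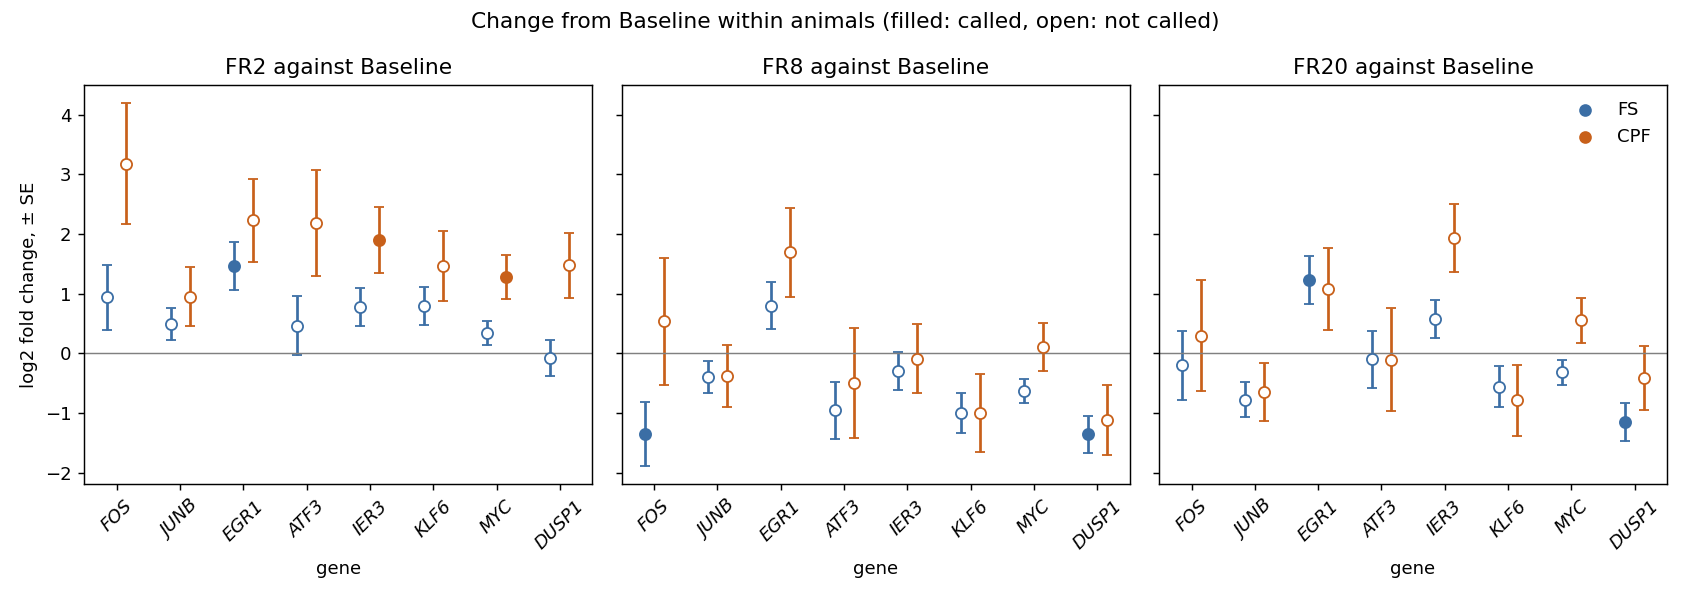
Log2 fold change from Baseline (y axis) of each of the 8 genes at FR2, FR8 and FR20 in FS (blue) and CPF animals (orange). Bars are ± SE, derived from edgeR's quasi-likelihood test on all 88 libraries. Filled points are changes that passed both thresholds. At FR2 every CPF point lies above 0, up to 3.18 for FOS, and the filled points are EGR1 in FS animals and IER3 and MYC in CPF animals.

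FOS, one part of the AP-1 dimer and the classic marker of the response, was the most variable member. In FS animals its expression in CPM ran from 4.37 to 151 at Baseline (median 19.2), from 3.32 to 201 at FR2 (median 48.3), from 2.71 to 48.4 at FR8 (median 8.51) and from 3.38 to 136 at FR20 (median 13.3). The FS ranges overlapped at all 4 time points, with animal 10 lowest and animal 4 highest at FR2. In CPF animals 3, 7, 8, 13 and 18 FOS was 3.30, 17.8, 199, 13.6 and 8.34 at Baseline and 135, 658, 954, 8.01 and 91.2 at FR2. It was 64.4, 37.7, 6.07 and 87.3 at FR8 (animals 7, 8, 13 and 18) and 3.74, 87.3, 78.8, 13.4 and 32.8 at FR20. Animals 7 and 8 at FR2 were above every FS library, while animal 13 lay between 6.07 and 13.6 at all 4 time points.

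For FOS in FS animals the log2 change from FR2 to FR8 was -2.29 ± 0.50 (SE, n = 18, adjusted p = 0.000489 by edgeR's quasi-likelihood test), with lower values in 15 of 18 animals. Against Baseline, FR8 was lower by a log2 change of -1.35 ± 0.54 (n = 15, adjusted p = 0.0398 in edgeR), although only 9 of 15 animals were lower. That second call was lost when any 1 of FS animals 1, 2, 5, 10, 11, 15 or 23 was left out. The FR2 change of 0.94 ± 0.55 in FS did not pass (adjusted p = 0.163 in edgeR, higher in 11 of 15), and nor did the CPF change of 3.18 ± 1.01 (adjusted p = 0.0606 in edgeR, higher in 4 of 5).

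JUNB, the AP-1 partner that often damps the activity of JUN, was expressed more evenly. FS values ran from 40.7 to 156 CPM at Baseline (median 70.4), from 21.6 to 257 at FR2 (median 115), from 26.2 to 114 at FR8 (median 62.4) and from 10.95 to 206 at FR20 (median 35.1). The CPF values, for animals 3, 7, 8, 13 and 18, were 41.5, 235, 170.5, 96.5 and 129 at Baseline, 201, 417, 314, 78.6 and 193 at FR2, and 27, 86.8, 113, 119 and 45.4 at FR20. At FR8 animals 7, 8, 13 and 18 had 247, 116, 42.8 and 85.4. Animal 7 was the highest CPF animal at B, FR2 and FR8, and the groups overlapped at each time point.

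By edgeR's quasi-likelihood test no JUNB change reached the fold threshold in FS animals. The FS drop from FR2 to FR8 had a log2 change of -0.89 (adjusted p = 0.00802 in edgeR, lower in 16 of 18), and FR20 against Baseline was -0.78 ± 0.29 (adjusted p = 0.0319 in edgeR, lower in 14 of 15). With limma both passed, at -1.18 and -1.01, and the drop from FR2 to FR8 also passed in edgeR without FS animal 10, at -1.01. At FR2 against Baseline the change was 0.49 in FS (adjusted p = 0.145 in edgeR, higher in 13 of 15) and 0.95 in CPF (adjusted p = 0.274 in edgeR).

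ATF3, induced by many kinds of cell stress, was highest at FR2 in the same CPF animals as FOS (7 and 8). FS values ran from 4.76 to 116 CPM at Baseline (median 25.5), from 6.03 to 176 at FR2 (median 69.5, n = 17), from 6.75 to 79.95 at FR8 (median 17.7, n = 17) and from 5.13 to 156 at FR20 (median 27.6). Among CPF animals (3, 7, 8, 13 and 18) it was 13.2, 32.9, 372, 18.6 and 22.7 at Baseline and 145, 556, 473, 11.9 and 39.1 at FR2. It was 18.2, 42.9, 26.2 and 64.1 at FR8 in animals 7, 8, 13 and 18, and 12.5, 15.8, 79.7, 20.9 and 152.1 at FR20. Animal 8 was above every FS Baseline, animals 7 and 8 were above every FS library at FR2, and animal 13 fell below its own Baseline at FR2.

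ATF3 fell from FR2 to FR8 in FS animals by 1.42 on the log2 scale with all libraries (adjusted p = 0.011 in edgeR) and by 1.43 without the 2 libraries of animal 11 (adjusted p = 0.00533 in edgeR), with lower values in 13 of 17 animals. At FR2 against Baseline the FS log2 change was 0.47 with them and 0.75 without them (adjusted p = 0.465 and 0.16 in edgeR). At FR8 against Baseline it was -0.96 with them and -0.68 without them (adjusted p = 0.101 and 0.193). In CPF animals, higher in 4 of 5, the FR2 change was 2.18 ± 0.89 with them and 2.18 ± 0.79 without them (adjusted p = 0.153 and 0.0958 in edgeR).

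**Figure D2:**
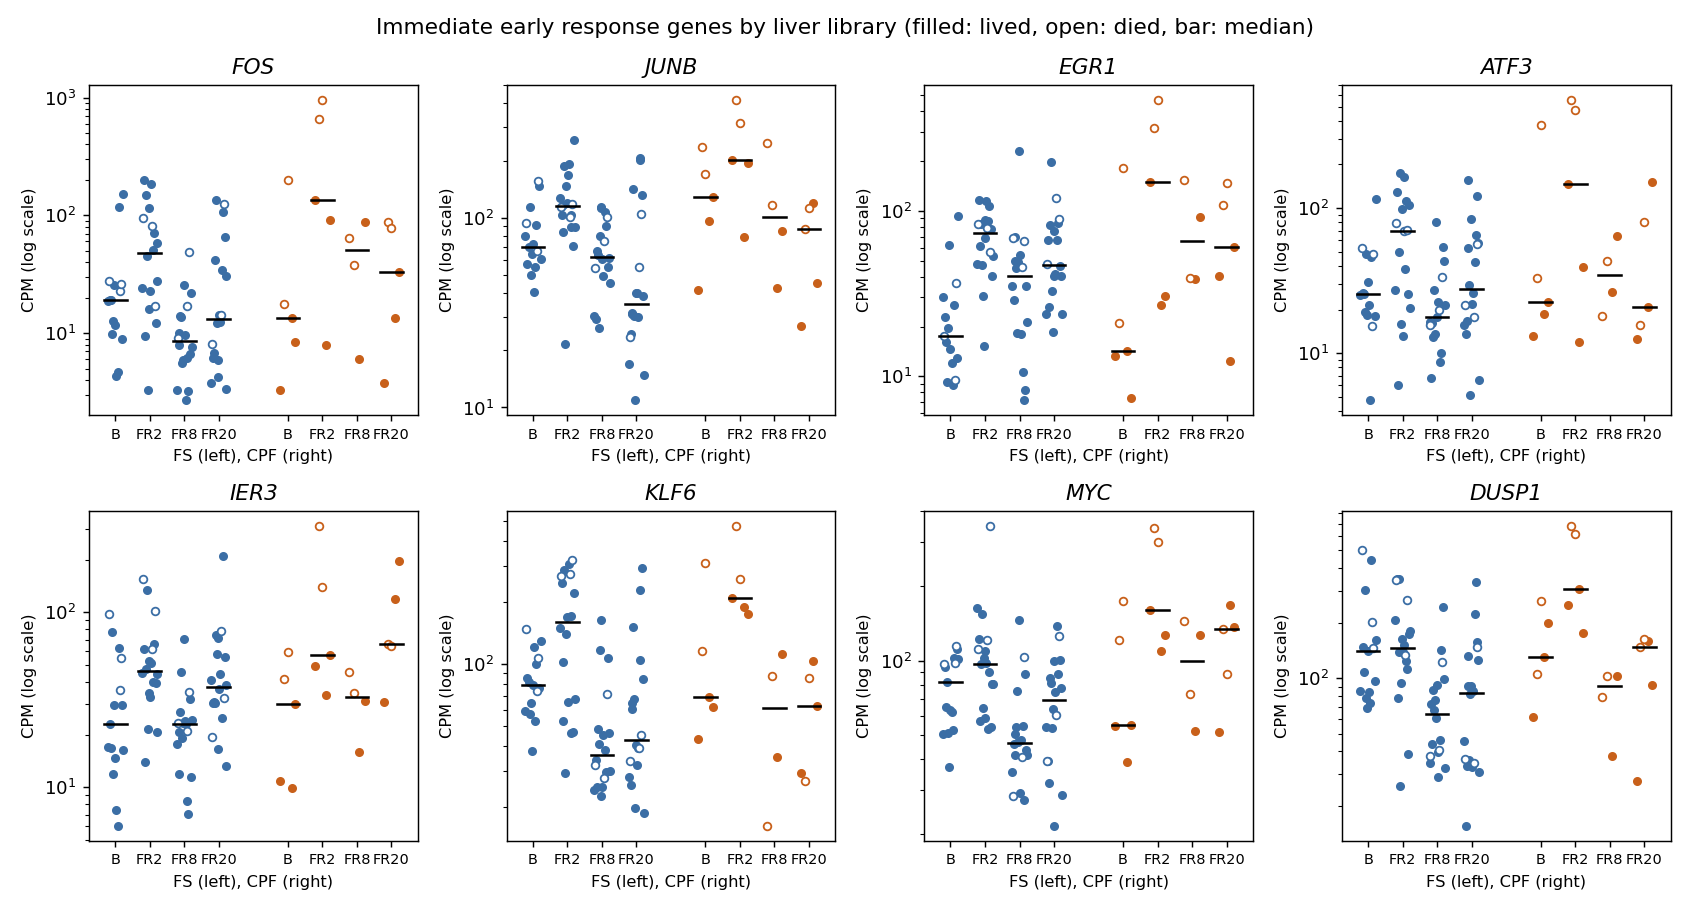
Expression of the 8 genes in the libraries used (y axis, CPM on a log scale) by time point in FS (blue, left) and CPF animals (orange, right), with 1 point per animal, filled if it lived and open if it died, and a bar at the median. FOS in CPF animals spans 8.01 to 954 at FR2, and the FS median of each gene is highest at FR2.

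EGR1, a zinc finger factor induced by growth factor and stress signals, was the only member that rose from Baseline in FS animals, at FR2 and at FR20. Its FS values ran from 8.83 to 93.02 CPM at Baseline (median 17.5), from 15.3 to 117 at FR2 (median 73.1), from 7.20 to 231 at FR8 (median 40.2) and from 18.6 to 197 at FR20 (median 47.1). Its CPF values in animals 3, 7, 8, 13 and 18 were 13.2, 21.1, 182, 14.3 and 7.44 at Baseline, 149, 316, 468, 26.8 and 30.7 at FR2, and 40.3, 109, 148, 12.4 and 60.4 at FR20. The FR8 values in animals 7, 8, 13 and 18 were 153, 39.4, 38.9 and 91.3. CPF animals 3, 7 and 8 were above every FS animal at FR2.

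The EGR1 log2 change in FS animals was 1.47 ± 0.40 at FR2 (2.77-fold, n = 15, adjusted p = 0.00234 in edgeR, higher in 13 of 15) and 1.24 ± 0.40 at FR20 (2.36-fold, adjusted p = 0.0132 in edgeR, higher in 12 of 15). At FR8 it was 0.80 ± 0.39 (adjusted p = 0.1 in edgeR, higher in 12 of 15). With the 3 left-out Baselines kept, the FR2 change was 0.97 and the FR20 change 0.75 (adjusted p = 0.149 in edgeR), and neither passed. In CPF animals the FR2 change was 2.23 ± 0.69, with higher values in 5 of 5 (adjusted p = 0.0549 in edgeR), and it passed once the 2 libraries of FS animal 11 were left out (adjusted p = 0.0475 in edgeR). From FR2 to FR8 EGR1 was the only member that passed neither threshold in FS animals (log2 change -0.67, adjusted p = 0.158 in edgeR, lower in 14 of 18).

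KLF6, a zinc finger factor known from liver injury, ran in FS animals from 37.6 to 148 CPM at Baseline (median 79.1), from 29.5 to 323 at FR2 (median 160.5), from 22.6 to 165 at FR8 (median 36.0) and from 18.7 to 296 at FR20 (median 42.6). In CPF animals 3, 7, 8, 13 and 18 it was 43.2, 116, 312, 68.8 and 61.7 at Baseline and 210.5, 474, 259.8, 189 and 176 at FR2. At FR8 it was 16.3, 87.3, 35.3 and 112 in animals 7, 8, 13 and 18, and at FR20 29.3, 26.9, 85.7, 103 and 62.6. All 5 CPF animals were above the FS median at FR2, and animal 8 was the only CPF animal whose Baseline was above its FR2 value.

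Of the members, KLF6 had the smallest adjusted p for the drop in FS animals. Its log2 change from FR2 to FR8 in FS animals was -1.79 ± 0.32 (3.47-fold, n = 18, adjusted p = 5.48e-05 in edgeR), lower in 16 of 18. In CPF animals it was -2.46 ± 0.70 (n = 4, adjusted p = 0.025 in edgeR), lower in 4 of 4, and the call was lost when animal 7, 8 or 13 was left out. At FR2 against Baseline the FS change was 0.79 ± 0.32 (adjusted p = 0.0429 in edgeR, higher in 12 of 15), short of the fold threshold. Without the 2 libraries of FS animal 11 that adjusted p was 0.0665 in edgeR. At FR8 against Baseline KLF6 was 2.00-fold lower in FS animals (adjusted p = 0.0119 in edgeR, lower in 13 of 15). Its log2 change there was just under 1 in size. It passed at -1.02 with DESeq2's size factors, at -1.03 with DESeq2 and at -1.07 with limma.

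MYC, the growth-promoting factor, varied least. FS values ran from 37.2 to 114 CPM at Baseline (median 82.1), from 52.8 to 350.4 at FR2 (median 97.2), from 27.3 to 145 at FR8 (median 46.6) and from 21.6 to 139 at FR20 (median 69.5). For CPF animals 3, 7, 8, 13 and 18 it was 54.3, 121, 174, 38.8 and 54.9 at Baseline, 161, 343, 302, 109 and 127 at FR2, and 51.7, 135, 88.1, 167 and 136 at FR20. At FR8 animals 7, 8, 13 and 18 had 144, 73.1, 51.9 and 127. Each of the 5 CPF animals was higher at FR2 than at its own Baseline.

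That CPF rise of MYC was 1.28 ± 0.37 on the log2 scale (2.42-fold, n = 5, adjusted p = 0.0381 in edgeR), and it lost its call when animal 3, 7, 13 or 18 was left out. Neither this change nor that of IER3 passed in a fit without animal terms or with the 3 left-out FS Baselines kept (MYC adjusted p = 0.0683 and IER3 0.0719 in edgeR for the latter). In FS animals the FR2 change was 0.35 (adjusted p = 0.175 in edgeR). The FS values were lower at FR8 than at FR2 by a log2 change of -0.98 ± 0.20 (adjusted p = 0.000183 in edgeR, lower in 14 of 18) and lower at FR8 than at Baseline by -0.63 (adjusted p = 0.0118 in edgeR, lower in 12 of 15), both short of the fold threshold.

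IER3, a regulator of cell survival under stress, was the member whose CPF median was highest at FR20. FS values ran from 6.04 to 98.3 CPM at Baseline (median 22.9), from 13.9 to 156 at FR2 (median 46.2), from 7.09 to 70.1 at FR8 (median 23.1) and from 13.3 to 211 at FR20 (median 37.5). In CPF animals 3, 7, 8, 13 and 18 it was 10.9, 41.7, 59.4, 9.91 and 30.01 at Baseline, 49.4, 313, 140.4, 33.9 and 57.5 at FR2, and 30.7, 66.4, 64.7, 119.7 and 197 at FR20. At FR8 animals 7, 8, 13 and 18 had 45.5, 34.4, 15.9 and 31.1. Every CPF animal was above its own Baseline at FR2 and at FR20.

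The CPF change of IER3 at FR2 was 1.90 ± 0.56 on the log2 scale (3.74-fold, n = 5, adjusted p = 0.0423 in edgeR) and at FR20 1.93 ± 0.58 (higher in 5 of 5, adjusted p = 0.0725 in edgeR, not passed). The FR2 call was lost when animal 3, 7, 13 or 18 was left out. From FR2 to FR8 IER3 fell in FS animals by 1.07 on the log2 scale (adjusted p = 0.00417 in edgeR, lower in 15 of 18) and in CPF animals by 1.99 (adjusted p = 0.0382 in edgeR, lower in 4 of 4). Leaving out FS animal 2 or 4 ended the FS call, and leaving out any CPF animal ended the CPF call. The FS change at FR2 was 0.78 ± 0.31 (adjusted p = 0.0378 in edgeR, higher in 11 of 15), under the fold threshold. Without the 2 libraries of FS animal 11 it was 0.69 (adjusted p = 0.0699 in edgeR).

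DUSP1, the phosphatase that closes the MAP kinase signal, fell below Baseline in FS animals. FS values ran from 68.8 to 504 CPM at Baseline (median 142), from 26 to 351 at FR2 (median 146), from 29.1 to 246 at FR8 (median 64.1) and from 15.7 to 336 at FR20 (median 83.5). In CPF animals 3, 7, 8, 13 and 18 it was 61.6, 105, 264, 131.7 and 199.6 at Baseline, 252, 683, 614, 306 and 178 at FR2, and 27.6, 148, 163, 160.3 and 92.2 at FR20. At FR8 animals 7, 8, 13 and 18 had 79.1, 103, 37.6 and 103, and these 4 values lay below all 5 CPF values at FR2.

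In FS animals the DUSP1 log2 change from Baseline was -0.08 ± 0.30 at FR2 (adjusted p = 0.862 in edgeR, higher in 9 of 15), -1.36 ± 0.31 at FR8 (2.56-fold lower, adjusted p = 0.000397 in edgeR, lower in 12 of 15) and -1.15 ± 0.32 at FR20 (adjusted p = 0.00366 in edgeR, lower in 11 of 15). The FR20 call was lost without FS animal 2, at -0.96, and with the 3 left-out Baselines kept, at -0.93. From FR2 to FR8 the change was -1.28 ± 0.30 in FS (adjusted p = 0.000835 in edgeR, lower in 15 of 18) and -2.60 ± 0.63 in CPF (adjusted p = 0.0131 in edgeR, lower in 4 of 4), the latter lost without animal 7 or 13. In CPF animals DUSP1 was higher at FR2 than at Baseline in 4 of 5, by 1.48 ± 0.55 (adjusted p = 0.115 in edgeR).

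Group levels were also set side by side without pairing by animal. Placing the 4 time points of each gene and feeding group in order of their medians gave 48 pairs of neighbours. In 5 of them the mean log2 values differed by more than the larger of the 2 SDs, all in CPF animals and 4 of them with FR2 as the higher, and in 1 the ranges did not overlap, namely DUSP1 at FR2 above FR20. No FS neighbours differed beyond their spread by that measure, which leaves out the pairing that the tests above use.

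Single animals differed widely in how many genes moved. At FR2 all 8 genes were above Baseline in FS animals 1, 4, 9, 12 and 14 and in CPF animals 3 and 7. In contrast 1 gene was above Baseline in FS animal 10, 2 in FS animal 5 and 3 in FS animal 23. FS animal 12 still had all 8 genes above Baseline at FR8, with a median log2 change of 1.68, and FS animal 9 had all 8 above it at FR20, with a median of 1.61. FS animal 23 had none above Baseline at FR20 and the highest FS Baseline for FOS, ATF3 and EGR1.

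**Figure D3:**
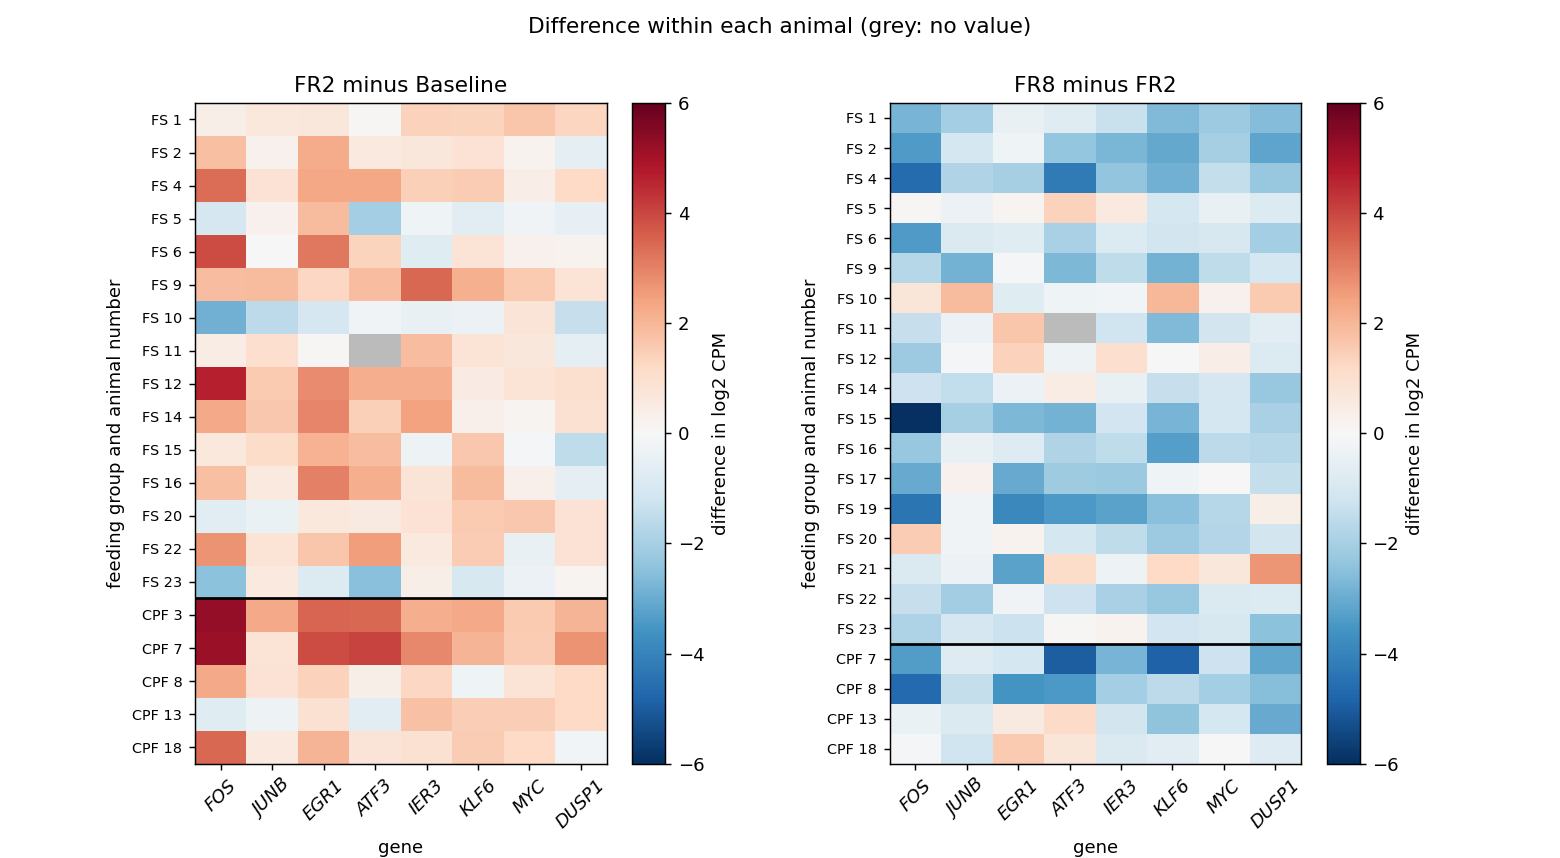
Difference in log2 CPM within each animal (rows) for each gene (columns), FR2 minus Baseline on the left and FR8 minus FR2 on the right, with red for higher, blue for lower and grey for no value. The left panel is mostly red apart from FS animals 5, 10 and 23, and the right panel is mostly blue.

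Carbohydrate prefeeding was compared with fasting at each time point and as a difference in the change from Baseline, the question being whether fed state alters the response. By edgeR's quasi-likelihood test no member passed in any of these 7 comparisons, and of the genes tested 0.0257% passed at Baseline and none in the other 6. DESeq2, edgeR's likelihood ratio test and limma also called no member. Over all genes they called 31, 26 and 14 at Baseline and 0 to 7 at the later time points. At FR2 all 8 members had a positive log2 difference, CPF over FS, and 7 had an unadjusted p under 0.05, as did 664 of all genes tested. The difference was also positive for 6 members at Baseline, 8 at FR8 and 7 at FR20.

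Differences at FR2 were largest for FOS, with a log2 difference of 2.49 and a 95% interval of 1.10 to 3.88 (adjusted p = 0.691 in edgeR), and for ATF3, at 1.88 with all libraries and 1.8 without those of animal 11 (adjusted p = 0.874 and 0.6 in edgeR). EGR1 differed by 1.5 with an interval of 0.65 to 2.36 (adjusted p = 0.706 in edgeR). DUSP1 differed by 1.25, IER3 by 1.06, JUNB by 0.97 and MYC by 0.93, with intervals above 0, and KLF6 by 0.66 with an interval of -0.24 to 1.56. These wide intervals rest on 5 CPF animals, 3 of them (animals 3, 7 and 8) high and animal 13 low for FOS, ATF3 and EGR1. Animals 7 and 8 were the CPF animals labelled as having died, and these fits held no term for outcome.

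At the other time points the CPF and FS values lay closer. FOS at FR8 differed by 2.00 (interval 0.91 to 3.09, adjusted p = 0.763 in edgeR), and 3 members had an unadjusted p under 0.05. For DUSP1 at FR8 the difference was 0.07 with an interval of -0.84 to 0.99. At Baseline JUNB differed by 0.74 and ATF3 by 1.42 (adjusted p = 0.524 and 0.555 in edgeR), and at FR20 IER3 by 0.91 and MYC by 0.71 (adjusted p = 1.00 for both, after rounding, in edgeR).

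Tested as a difference in the change from Baseline to FR2, CPF exceeded FS for 8 of 8 members. DUSP1 had a difference of 1.55 with an interval of 0.31 to 2.79, MYC one of 0.93 with an interval of 0.10 to 1.77, and FOS one of 2.24 with an interval of 0.01 to 4.48. ATF3 had one of 1.72 with all libraries and 1.43 without those of animal 11. DUSP1, MYC and FOS had an unadjusted p under 0.05, as did 397 of all genes, and none passed adjustment. At an unadjusted p under 0.05 were no member and 468 genes for the change to FR8, and 2 members (IER3 and MYC) and 521 genes for the change to FR20. In the change to FR8 the difference was positive for 8 members, as for 51.9% of all genes, and to FR20 for 5, as for 53.9%. To FR8 it was small for KLF6 (0.003) and JUNB (0.02), and -0.008 for KLF6 without the libraries of animal 11. In a fit without animal terms it was negative to FR8 for EGR1 (-0.11), ATF3 (-0.72) and KLF6 (-0.23).

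**Figure D4:**
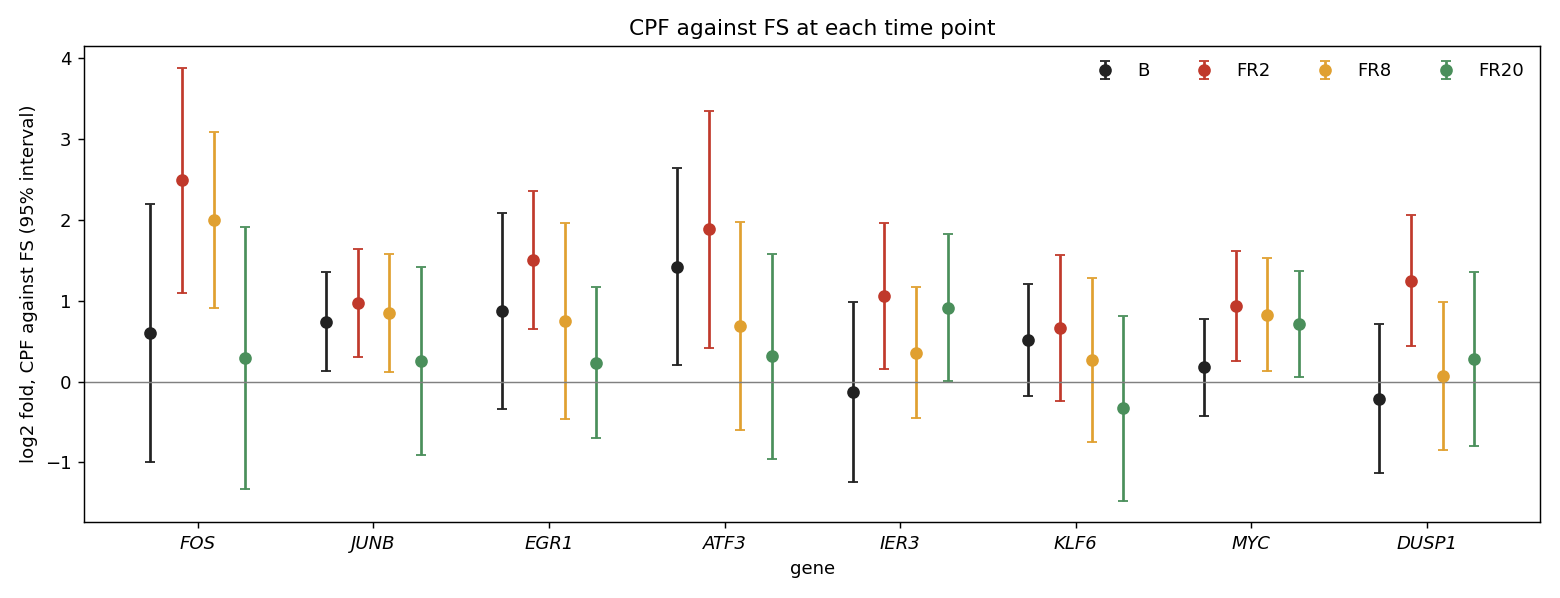
Log2 difference between CPF and FS animals for each gene at Baseline, FR2, FR8 and FR20. Bars are the 95% interval derived from edgeR's quasi-likelihood test on all libraries used. At FR2 all 8 points lie above 0, from 0.66 for KLF6 to 2.49 for FOS, as do all 8 at FR8. No difference passed the threshold.

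Animals that died were compared with those that lived, with feeding as a term. By edgeR's quasi-likelihood test no member passed at any time point, and none of the 11688 to 12307 genes tested did. Other tools called some genes, with 10 by DESeq2 and 19 by edgeR's likelihood ratio test at Baseline and 20 by limma at FR2. At Baseline all 8 members were higher in the animals that died and 5 had an unadjusted p under 0.05, as did 998 of all genes. At FR2 all 8 were again higher and 4 had an unadjusted p under 0.05, as did 656 genes. The counts were 1 member and 265 genes at FR8 and 1 member and 642 genes at FR20. By edgeR's likelihood ratio test 2 members passed at FR2 and by limma 1. How many of all genes the likelihood ratio test called at FR2 is not given here.

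IER3 and MYC had the smallest p of the members between the outcomes at FR2, although FOS (1.31) and ATF3 (1.24) had larger log2 differences than MYC. The ATF3 difference was 1.19 without the library of animal 11. IER3 was 156, 61.7 and 102 CPM in the FS animals that died (2, 16 and 20), and 313 and 140.4 in the CPF animals that died (7 and 8). In the 18 that lived it ran from 13.9 to 134 (median 44.7). All 5 animals that died were above that median, and the ranges overlapped. The log2 difference was 1.57 with an interval of 0.83 to 2.31 (adjusted p = 0.36 in edgeR). MYC was 112, 121 and 350.4 in those FS animals, 343 and 302 in those CPF animals, and 52.8 to 163 in the animals that lived (median 97.2), a difference of 1.15 with an interval of 0.62 to 1.68 (adjusted p = 0.36 in edgeR).

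The same 2 genes were also higher in the animals that died at Baseline, before the injury, although neither difference passed. IER3 ran from 36.1 to 98.3 in the 5 animals that died and from 6.04 to 77.4 in 15 that lived, with a log2 difference of 1.39 (adjusted p = 0.34 in edgeR). MYC ran from 97.3 to 174 and from 37.2 to 111, a difference of 0.90 (adjusted p = 0.321 in edgeR), and KLF6 differed by 1.00 (adjusted p = 0.331 in edgeR). Later the differences were smaller or turned, at 0.31 for IER3 and 0.12 for MYC at FR8, and -0.44 and 0.04 at FR20. Feeding and death were not balanced, since 2 of 5 CPF and 3 of 18 FS animals died.

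The members varied widely between animals of a group. With group means removed, the SD of log2 expression was 1.65 for FOS, above that of 99.5% of all genes tested, 1.34 for ATF3 (98.5%) and 1.10 for EGR1 (95.8%). It was 0.99 for IER3 and DUSP1, 0.97 for KLF6, 0.89 for JUNB and 0.69 for MYC, against a median of 0.59 over all genes.

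The members moved together across animals. Over 86 libraries with group means removed, the 28 pairs of members had correlations of 0.15 (EGR1 with DUSP1) to 0.75 (FOS with ATF3), with a median of 0.57, and 20 of 28 were above 0.5. By time point the median was 0.55 at Baseline, 0.63 at FR2, 0.42 at FR8 and 0.61 at FR20. Libraries of 1 animal share that animal, so these points are not independent.

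For each member the 3 genes with the highest correlation to it were taken, over the same 86 libraries. PPP1R15A, which lets translation resume after stress, was closest to ATF3 (r = 0.84) and FOS (0.73) and among the 3 closest to KLF6 (0.79). IER2 was closest to EGR1 (0.82) and second for FOS (0.72), and MAFF, a small MAF factor, was closest to KLF6 (0.80) and MYC (0.67). GADD45B, a growth arrest gene, was closest to JUNB (0.79) and DUSP1 (0.77). IER3 stood with F3, the tissue factor that starts clotting (0.73), PLK3 (0.72) and EPHA2 (0.71).

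Related genes outside the 8 members were taken from lists of their families. Of all genes tested, 11%, 11.8% and 9.94% changed from Baseline in FS animals at FR2, FR8 and FR20. In CPF animals 2.41%, 8.83% and 0.702% did. The lists are short, so their counts rest on few genes, and some lie near these shares. Among the tested relatives of AP-1 and its partners, BATF (1.16) and FOSL1 (1.5) rose on the log2 scale in FS animals at FR2. None rose at FR8, where MAFF (-1.20) and FOSL2 (-1.06) fell, and FOSL2 also fell at FR20 (-1.34). In CPF animals none changed at FR2 or FR20, and ATF6 rose at FR8.

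Of 5 tested genes of the EGR and NR4A families and their corepressors, NR4A2 fell in FS animals at FR2 (-1.31), FR8 (-2.26) and FR20 (-1.64), NR4A3 fell at FR8 (-2.39) and FR20 (-1.65), and none rose from Baseline. In CPF animals NAB2 fell at FR8 and no other of the 5 changed at any time. Of 6 tested KLF genes, KLF9, a factor induced by glucocorticoids, fell in FS animals at each time (-1.50, -2.91 and -2.79) and in CPF animals at FR8 (-3.70). KLF13 also fell in FS animals at FR20 and in CPF animals at FR8.

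Among 18 other tested early response genes, 4 rose in FS animals at FR2 (IER5, SERTAD1, MCL1 and PHLDA1) and none fell. PHLDA1 had a log2 change of 2.29 and MCL1, which blocks apoptosis, of 1.61. At FR8 PHLDA1 (1.87) was up and 5 were down, with GADD45B at -2.62 and GADD45G at -1.93, and at FR20 5 were down and none up. In CPF animals ZFP36L1, MCL1 (1.62) and PTGS2 (2.32) rose at FR2, PHLDA1 rose and GADD45B, CCN2 and NFKBIA fell at FR8, and NFKBIA fell at FR20. IER5 and PTGS2 were among the genes without counts in 2 libraries of animal 11, and without those libraries IER5 (1.67) rose in CPF animals at FR2 as well, which made 4, while the FS count of genes down at FR8 went from 5 to 4.

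Phosphatases and kinases around DUSP1 were covered by 2 lists. Of 9 other tested DUSP genes, DUSP2 (1.19) and DUSP5 (2.80) rose in FS animals at FR2, and DUSP2 (-1.35) and DUSP10 (-1.34) fell at FR8. None changed at FR20, and in CPF animals only DUSP10 did, which fell at FR8 (-1.99). Of 20 tested upstream kinases and factors, MAPK8 (1.26) and RPS6KA3 (1.28) rose and MAP2K6 (-2.51) fell in FS animals at FR2, and MAPK14 (1.21) rose and MAP2K6 fell at FR8. MAP2K6 also fell at FR20. In CPF animals none changed at FR2 or FR20, and RPS6KA1, MAPK14 (1.44) and MAP3K5 rose and MAP2K6 fell at FR8. Without the 2 libraries of animal 11 RPS6KA3 (1.55) rose in CPF animals at FR2.

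Of 8 tested genes of the MYC network, MXD1 (1.19), which competes with MYC for its partner, rose in FS animals at FR2, while MYCN (-2.82) and MXD3 (-1.09) fell. At FR8 and FR20 MYCN, MXD3 and MXI1 fell, and at FR8 1 gene rose once the 2 libraries of animal 11 were left out. In CPF animals MLXIP, MXI1 and MXD3 fell at FR8 and none changed at FR2 or FR20.

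Markers of other cell types moved over the same times. Of 7 tested neutrophil markers 5 rose in FS animals at each time (IL1R2, LCN2, S100A8, S100A9 and S100A12), with list medians of 2.47, 2.25 and 1.97 on the log2 scale, and 4, 2 and 1 rose in CPF animals. The summed level of 9 neutrophil identifiers had medians of 8.84, 33.3, 26.1 and 39.0 CPM in FS animals at B, FR2, FR8 and FR20, and of 8.23, 37.3, 39.1 and 45.8 in CPF animals. The neutrophil genes CSF3R and MMP8 stayed at 3 counts or fewer, MMP8 except in FS animals at FR2. With group means removed, the neutrophil sum had a correlation of 0.35 with EGR1, 0.29 with FOS and 0.28 with JUNB over 86 libraries.

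Blood and hepatocyte markers also moved with some members. The erythroid sum of 5 identifiers had a correlation of 0.42 with JUNB, 0.41 with KLF6 and 0.38 with DUSP1, and its FS medians were 228, 284, 132.1 and 146 CPM at B, FR2, FR8 and FR20. The hepatocyte sum had a correlation of 0.44 with JUNB, 0.35 with KLF6 and 0.32 with DUSP1. Its FS medians were 207878, 177170, 144986 and 108863, and ALB, TF, TTR, TAT and AHSG fell in FS animals at FR8 and FR20, while FGB rose at both times and FGG at FR8. The endothelial sum had a correlation of 0.36 with EGR1. Other sums had negative correlations with EGR1, at -0.32 for macrophage, -0.19 for hepatocyte and -0.12 for erythroid markers. The depth of a library had correlations of -0.02 to 0.08 with the members. The part of these cell types in the results was not tested.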

How the data were processed

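Liver RNA of 23 pigs was sequenced as TruSeq libraries. Per the labels and the submitters' processing notes, the authors used CASAVA 1.8.2, TopHat 1.5.0, SAMtools and HTSeq on Sscrofa10.2, and edgeR 3.2.4. The counting mode and strand setting were not given in the sources used here. The deposited values are raw read counts per Ensembl gene.

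Here counts were scaled by TMM to CPM (counts per library total after scaling) and genes with a summed value of at least 10 were kept. Of the 8 members, 7 identifiers were matched to symbols by the gene name table and 1 (KLF6) by the study's tables. Which genes share a chromosome was read from the RefSeq table of Sscrofa11.1, and no coordinates were taken from it.

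Changes over time were tested with edgeR 4.0.16 (R 4.3.3) by the quasi-likelihood test with a term per animal and terms for each later time point by feeding group, on 88 libraries. Feeding was tested at each time point with no other term, so those differences were not adjusted for outcome. Outcome was tested at each time point with feeding as a term. Adjusted p-values are Benjamini-Hochberg over all genes of a fit. Comparisons numbered 21. DESeq2 1.42.0, limma 3.58.1 with quality weights, edgeR's likelihood ratio test, other filters and normalization, fits without animal terms and fits without 1 animal were alternatives. Expression values and their correlations used log2 CPM with a prior count of 2.

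The animal pairs the libraries. Over all genes, deviations from group means had a median correlation of 0.205 between 126 pairs of libraries of the same animal, and of -0.0235 between 2391 pairs of different animals. Tested on simulated data with 200 genes changed by 1.5 on the log2 scale, the test recovered 192 with no false call for FS FR2 against Baseline and 116 with 11 false calls for CPF (13583 genes). It recovered 159 with 8 false calls for CPF against FS at Baseline (11866 genes). The simulated counts held no animal effect and had the spread typical of a gene's expression level. Spread was wider in the members, above that of 92.2% (MYC) to 99.8% (FOS) of 500 genes of like expression. These recoveries therefore do not describe the members.

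The members and the gene lists were chosen with earlier results of these data known. The rule for named genes took the members, the 3 genes most like each (symbol known, highest Pearson r after group means were removed) and, for each list and change from Baseline, the genes with the lowest and highest log2 fold change. Other list genes are named because they passed the test and were chosen after their values were seen. A gene among the AP-1 relatives is not reported here. Replicates are separate animals. Depth was 6877117 to 16613261 counts per library.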

Additional observations from a re-analysis of the deposited data

Results flagged for a closer look

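Within groups of 4 to 10 samples, 32 were checked on the CPM scale for a sample far from the rest, and 5 were picked out. A chance rate of about 1 in 20 holds for separate groups. These were 8 genes that moved together in the same CPF libraries, and 4 of the 5 came from 1 library. The 5 of 32 therefore cannot be set against that rate. CPF animal 8 stood above the other 4 CPF animals at Baseline for 4 genes. FOS was 199 CPM against 3.30 to 17.8 in the others, EGR1 182 against 7.44 to 21.1, ATF3 372 against 13.2 to 32.9, and KLF6 312 against 43.2 to 116. At FR2 CPF animal 7 was highest for KLF6, at 474 against 176 to 259.8.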

How the results depend on the processing

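Counts of members called depended on the method in both feeding groups. None of the 15 called changes turned its direction under any alternative. Of the changes and differences of single genes, 44 took the other sign in at least 1 alternative, such as FOS for FR20 against Baseline in FS animals (0.13 with no animal block against -0.20). For FR2 against Baseline in FS animals, 1 was called, 4 with limma, 0 with the 3 left-out Baselines kept, 3 by adjusted p alone, and 1 to 2 without 1 animal. For FR8 the count was 2, 4 with those Baselines kept, 4 by adjusted p alone, and 1 to 3 without 1 animal. It was 3 with DESeq2's size factors, each other filter and each other tool, with KLF6 gained, and with limma EGR1 gained and FOS lost. For FR20 it was 2, 1 with no animal block, 0 with those Baselines kept, and 1 to 2 without 1 animal. From FR2 to FR8 it was 5, 6 with no or a lower filter, 7 with limma and by adjusted p alone, and 4 to 7 without 1 animal. From FR8 to FR20 it was 0, and 1 with no animal block.

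In CPF animals the FR2 count was 2, 1 with no filter, 4 with DESeq2, 4 with the likelihood ratio test, 6 with limma, 0 with no animal block, 0 with those Baselines kept, and 0 to 3 without 1 animal. For FR8 it was 0, and 0 to 1 without 1 animal. For FR20 it was 0, and 1 with each of DESeq2, the likelihood ratio test and limma. From FR2 to FR8 it was 3, 6 with DESeq2, 7 with limma, 1 with no animal block, and 0 to 2 without 1 animal. From FR8 to FR20 it was 0, and 1 with DESeq2. For animals that died at FR2 it was 0, 2 with the likelihood ratio test and 1 with limma. The causes were not tested. Counts of members with the other tools are given here without the share of all genes called. In the simulated data for CPF FR2 against Baseline, DESeq2, the likelihood ratio test and limma made 28, 23 and 21 false calls. The quasi-likelihood test made 11. Of 200 changed genes they recovered 145, 135 and 124, and the quasi-likelihood test recovered 116.

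Over single genes, 1759 of 1824 values with every animal kept and 1938 of 1984 with 1 animal left out stayed on the same side of the threshold; 13 and 28 lost it and 52 and 18 gained it. FS animals were not left out in the comparisons of feeding and outcome, apart from the 3 that died. Leaving out the 2 libraries of FS animal 11 was chosen after seeing the data.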

Other observations

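The 3 FS Baselines left out as lacking albumin (animals 17, 19 and 21) held high levels of most of these genes. With ACTA1 at 18973 to 27283 CPM they looked like muscle, so these are not levels of liver. As a share of all counts, JUNB was 158, 265.0 and 342 CPM, KLF6 172, 306 and 456, EGR1 87.3, 105 and 113, and MYC 121, 114 and 241, each above all 15 FS Baselines kept. FOS was 64.2, 231 and 124, above 13, 15 and 14 of the 15. IER3 was 23.7, 26.2 and 48.6, above 8, 8 and 12 of the 15. DUSP1 was 86.1, 246 and 207, above 6, 13 and 12 of the 15.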
